A study of Homo sapiens with 6 samples.

Results

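The genes followed here belong to protein phosphatase 2A (PP2A) and its direct regulators, and were measured in K562 cells given a miR-92a-1-5p mimic. They are PPME1, LCMT1, PPP2CA, PPP2CB, PPP2R1A, PPP2R1B, PPP2R2A, PPP2R5C, SET and IGBP1, 10 of the 35615 gene symbols in the count table, and all 10 passed the filter on low counts. PPME1 was chosen by its measured fall with the mimic in these same libraries, and the other 9 for their known roles around it, with results of these data already known. K562 is an erythroleukaemia line from a patient with chronic myeloid leukaemia and carries the BCR-ABL1 fusion kinase. The mimic cultures received 500 pmol of a synthetic hsa-miR-92a-1-5p mimic by nucleofection (miR92a 1 to 3), and the controls received the same amount of a non-targeting mimic (scramble 1 to 3). All 6 cultures, controls included, were treated with 1 µM imatinib, an ABL1 kinase inhibitor, 4 h after transfection, and total RNA was taken 24 h later, so every difference below is one seen under imatinib. All libraries come from 1 cell line, labelled as biological replicates with no further word on whether cultures were separate. The p-values set the difference between the groups against the spread between these libraries.

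PP2A is a serine/threonine phosphatase built from a scaffold subunit, a catalytic subunit and one of many exchangeable regulatory subunits that choose its substrates. The carboxyl end of the catalytic subunit is methylated by LCMT1, which favours assembly with some regulatory subunits, and the methyl group is removed by the methylesterase PPME1, which also holds the phosphatase in an inactive form. In chronic myeloid leukaemia PP2A opposes signalling by BCR-ABL1, and BCR-ABL1 in turn restrains PP2A through the inhibitor SET.

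The strand given as the mimic is shown first because its seed, bases 2 to 8 and in capitals, defines the matches sought in the transcripts; its partner strand from the same hairpin on chromosome 13 has another seed. Both are RefSeq sequences (GRCh38.p14), written 5′ to 3′.
hsa-miR-92a-1-5p: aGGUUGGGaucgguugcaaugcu
hsa-miR-92a-3p: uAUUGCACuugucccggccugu

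The seed of miR-92a-1-5p pairs with CCCAACC on the transcript's own strand, and a match was counted as an 8mer (CCCAACCA), a 7mer-m8 (CCCAACC), a 7mer-A1 (CCAACCA) or a 6mer (CCAACC), the longest form at each place. In the longest annotated 3′ UTR, 2 of the 10 genes held a 7mer or 8mer, PPME1 and PPP2CA, against 16.9% of the 12888 tested genes for which a 3′ UTR is annotated. With 6mers included it was 4 of the 10 (PPP2R1A and SET in addition) against 27.1%, and no gene of the 10 held an 8mer, against 3.03%. None of the 10 held a 7mer or 8mer for miR-92a-3p in that 3′ UTR, although shorter ones of LCMT1 and PPP2R5C did. The matches to miR-92a-1-5p are printed with up to 19 bases before and 4 bases after, the match in capitals (GENCODE v29, GRCh38), since they differ in how near they lie to the end of the transcript.
PPME1, 7mer-m8, chr11:74254693-74254699, plus strand: ttaaagaaaataaatatctCCCAACCttta
PPP2CA, 7mer-A1, chr5:134194459-134194465, minus strand: tataaatattcctttgcttCCAACCAtaaa
LCMT1, 7mer-A1 in transcript LCMT1-205 alone, chr16:25140495-25140501, plus strand: aattacaattaacacgaggCCAACCAaa

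The PPME1 match lay at bases 1183 to 1189 of a 3′ UTR of 1193 bases, so that 4 bases followed it before the annotated end. RefSeq places the gene's end at the same base, 74254703 of chromosome 11. The hexamer AATAAA, the canonical polyadenylation signal, began 11 bases before the match, and it was found in the last 50 bases of 62.3% of tested 3′ UTRs. Among the 2173 tested genes with a 7mer or 8mer match, 13 (0.598%) had all their matches within 10 bases of the annotated end, as PPME1 did. Both annotated coding transcripts of PPME1 held this match, and a 6mer lay at bases 142 to 147 of the same 3′ UTR. The PPP2CA match lay at bases 3307 to 3313 of 3438, and it was present in the 1 coding transcript with a complete 3′ UTR. LCMT1 carried its match in 1 of 4 coding transcripts with a complete 3′ UTR, LCMT1-205, and not in the one with the longest. Where K562 transcripts end, and which isoforms they use, was not measured.

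**Figure D1:**
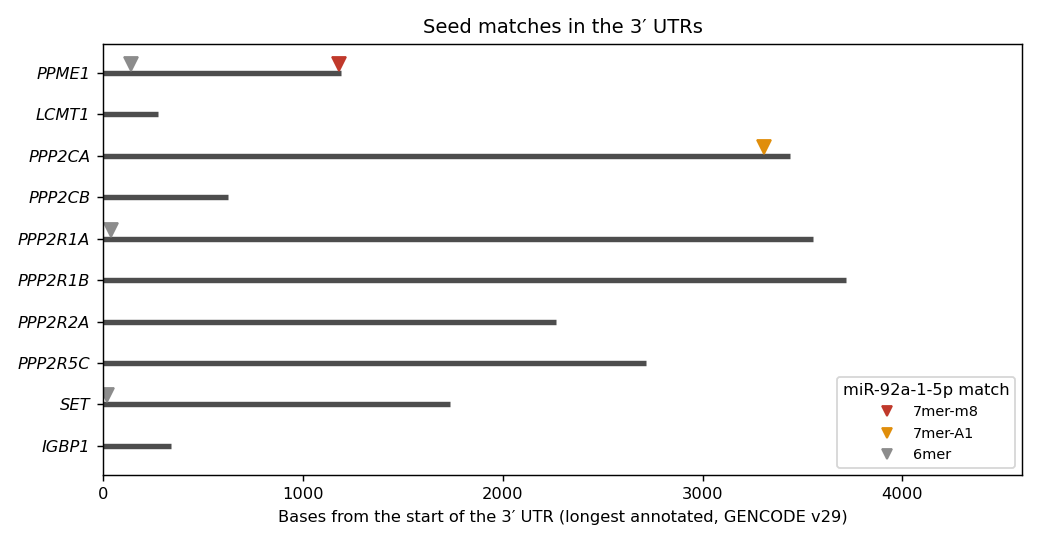
Longest annotated 3′ UTR of each of the 10 genes, drawn to scale in bases from its start, with arrowheads where a seed match for miR-92a-1-5p begins. PPME1 has its 7mer-m8 at base 1183 of 1193, next to the end, PPP2CA a 7mer-A1 at base 3307 of 3438, and 6 genes have no match of any kind.

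Of the coding sequences, those of PPP2R1A and SET each held 1 7mer-A1 in the transcript with the longest 3′ UTR (at chr19:52216545-52216551 and chr9:128691918-128691924), against 20.2% of tested genes with a 7mer or 8mer there. PPME1 had at most a 6mer in its coding sequence.

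The table held 24751862 to 25982085 counts in 5 libraries and 704448 in miR92a 1. In that library 3 counts stood for 4.08 CPM (counts relative to the TMM-scaled library total), against 0.115 to 0.125 CPM in the others. The labels call the cells myeloblasts. The myeloperoxidase and cathepsin G genes MPO and CTSG were at 0 in all 6 libraries, as 2 of 7 myeloblast and granulocyte markers, whose summed level was 15 to 22.6 CPM with the mimic and 22.8 to 25.7 CPM in scramble libraries. The 8 erythroid markers were all detected, at a summed 7680 to 13900 CPM with the mimic and 9370 to 14500 CPM in scramble libraries. B-cell marker MS4A1 was at 0, and the 5 lymphoid markers summed to 5.44 to 8.02 CPM with the mimic and 7.65 to 7.94 CPM in scramble libraries. The 4 stromal and epithelial markers summed to 180 to 189 CPM with the mimic and 157 to 193 CPM in scramble libraries. Most of this sum was EPCAM, at 135.2 to 176.5 CPM over the 6 libraries. PECAM1 had 9.58 to 27.2 CPM, and COL1A1 and COL1A2 at most 3.71 and 0.79 CPM. CD33 had 14.03 to 20.71 CPM over the 6 libraries and made up most of the myeloblast and granulocyte sum in each. In miR92a 1 that sum of 15 CPM was CD33 alone, on 11 counts, against 350 to 524 counts in the other libraries. The part of the cell type markers in the results below was not tested. In bulk RNA, fewer cells of a kind and less RNA per cell cannot be told apart.

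With the mimic, 142 genes (0.976% of 14543 tested) were lower and 63 (0.433%) were higher by edgeR's quasi-likelihood test with a Benjamini-Hochberg adjusted p under 0.05. Of the 10 genes, 1 passed as lower, PPME1, and 1 as higher, PPP2R1B. Since this contrast chose PPME1 and was known when the rest were named, the values that follow for the 10 genes are a description and carry no p. With the replicate number as a block the same 2 genes passed, where 6.7% of all tested genes were lower and 4.57% higher. They also passed with DESeq2 (1.7% lower and 0.97% higher) and with limma-voom (1.25% and 0.639%). The median log2 fold change of the 10 genes was 0.06, against -0.01 over all tested genes.

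PPME1 had the largest fold difference of the 10 genes. The methylesterase transcript had 21, 982 and 825 counts in miR92a 1, 2 and 3, against 2627, 2629 and 2435 counts in scramble 1, 2 and 3. Scaled, this was 28.6, 37.5 and 33.1 CPM with the mimic, against 103, 104 and 101.2 CPM in scramble libraries. The coefficient of variation (SD over mean) was 1.31% for the scramble libraries and 13.5% for those with the mimic, and no mimic library came near a scramble one. The mean was 33.04 ± 4.46 CPM with the mimic and 103 ± 1.349 CPM without (SD, n = 3 each), for a log2 fold change of -1.58 ± 0.11 (SE), or 33.4% of the scramble level. The 21 counts of miR92a 1 have a 95% Poisson interval of 17.7 to 43.7 CPM, which holds the values of the other mimic libraries. Taken by replicate number, the log2 differences were -1.85, -1.47 and -1.61 for replicates 1, 2 and 3. PPME1 stood at position 29 from the lowest among all 14543 fold changes; of the genes past the threshold the next lower one was TGM2 (-1.65) and the next higher one ACY1 (-1.58).

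The gene of PPME1 (ENSG00000214517.9, chr11:74171099-74254703, plus strand) overlaps the coding genes C2CD3 and P4HA3 on the opposite strand; the strand setting of the libraries is not given in the sources used here. Counts of C2CD3, a centriole gene, were 22, 1031 and 941 with the mimic, against 1173, 1178 and 1064 in scramble libraries, and P4HA3, a collagen prolyl hydroxylase gene, had at most 17 counts in any library. Of the 31-base words in PPME1 transcripts 2.85% occur in a transcript of another gene, most of them in P4HA3.

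**Figure D2:**
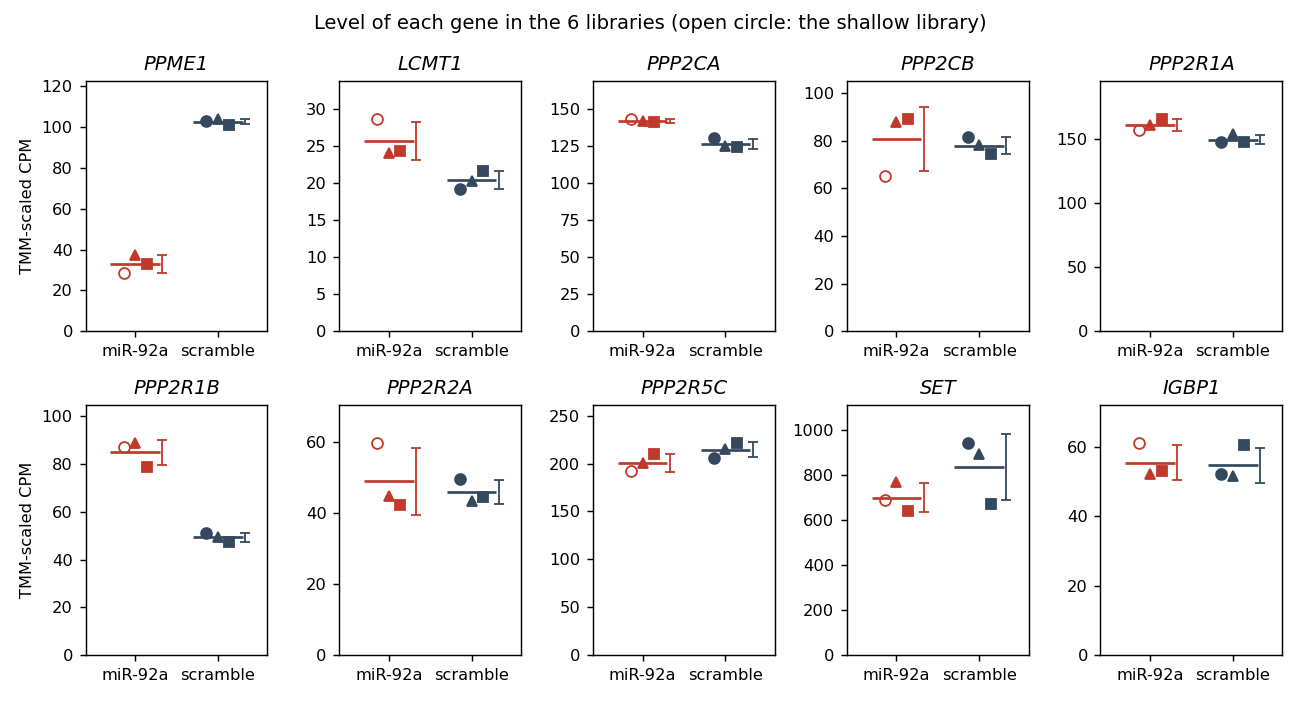
TMM-scaled CPM of each of the 10 genes in every library, mimic to the left and scramble to the right, with circles, triangles and squares for replicates 1, 2 and 3, a line at the group mean and a bar of ± 1 SD (n = 3). The 3 mimic libraries lie between 28.6 and 37.5 CPM for PPME1, all below 101.2 CPM, and between 78.9 and 88.9 CPM for PPP2R1B, all above 51.1 CPM; the open circle is miR92a 1, the library with 704448 counts.

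LCMT1, the methyltransferase that PPME1 opposes, had 28.6, 24.1 and 24.3 CPM with the mimic, against 19.2, 20.2 and 21.6 CPM in scramble libraries. The groups did not overlap, but the difference was small and its log2 value, 0.29 ± 0.13 (SE), did not pass the threshold. The highest mimic library, miR92a 1, rests on 21 counts, with a 95% Poisson interval of 17.7 to 43.7 CPM.

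The balance of the opposed pair was read per length, as CPM per kilobase of the longest coding transcript (2677 bases for PPME1 and 1368 for LCMT1). PPME1 over LCMT1 was 0.511, 0.796 and 0.697 with the mimic, against 2.74, 2.63 and 2.39 in scramble libraries. On this scale the esterase transcript was the less abundant of the pair in each mimic library and the more abundant one in each scramble library. With the shortest coding transcripts PPME1 was below LCMT1 in both groups, at 13.2 against 57.1 CPM per kilobase with the mimic and 41.2 against 45.3 in scramble libraries, so the crossing depends on the length used. With the longest transcripts, the mean ratio was 0.668 ± 0.145 with the mimic and 2.59 ± 0.178 without (SD, n = 3 each), a ratio of means of 0.258. The same 2 transcripts made up this ratio and the fold changes above, so it adds no separate evidence.

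The catalytic subunits differed little between the groups. PPP2CA, the alpha catalytic subunit, had 143, 141 and 141 CPM with the mimic, against 130, 125 and 124 CPM in scramble libraries. These groups did not overlap, yet the log2 fold change of 0.17 ± 0.08 (SE) did not pass the threshold. The 3′ UTR of this gene holds the 7mer-A1 printed above, and whether the mimic acts on it was not tested. Of the 31-base words in PPP2CA transcripts 11.2% occur in a transcript of another gene, the most (5.02%) in the overlapping gene AC104109.3. PPP2CB, the beta catalytic subunit, had 65.3, 87.7 and 89.0 CPM with the mimic, against 81.6, 78 and 74.3 CPM in scramble libraries, and the groups overlapped. Its low value came from miR92a 1, on 48 counts, and without that library the log2 fold change was 0.18 in place of 0.10. Per length, PPP2CA made up 48.6%, 41.0% and 40.6% of the catalytic pair with the mimic, against 40.8%, 40.8% and 41.8% in scramble libraries. Outside miR92a 1 the share stayed within 40.6% to 41.8% in all 5 libraries.

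The scaffold subunits moved by different amounts. PPP2R1B, the beta scaffold, had 64, 2329 and 1967 counts with the mimic, against 1303, 1246 and 1140 counts in scramble libraries. As CPM this was 87.1, 88.9 and 78.9 with the mimic, against 51.1, 49.2 and 47.4 in scramble libraries. The groups stood far apart, with means of 84.9 ± 5.36 and 49.3 ± 1.86 CPM (SD, n = 3 each) and a log2 fold change of 0.78 ± 0.10 (SE), or 172% of the scramble level. The log2 differences by replicate number were 0.77, 0.85 and 0.73. PPP2R1B did not pass the threshold without miR92a 2 or without scramble 2, or with all libraries thinned to the depth of miR92a 1, while its fold change stayed between 0.73 and 0.84 with libraries left out singly. Its 3′ UTR of 3715 bases, the longest of the 10, held no match to either strand of the hairpin. SIK2, which overlaps it on the opposite strand, had 42, 1388 and 1222 counts with the mimic, against 1354, 1249 and 1073 in scramble libraries.

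PPP2R1A, the alpha scaffold and usually the main one, had 157, 161 and 165 CPM with the mimic, against 148, 154 and 147 CPM in scramble libraries. The groups did not overlap, and the log2 fold change of 0.11 ± 0.08 (SE) did not pass. Of the 31-base words in PPP2R1A transcripts 9.32% occur in a transcript of another gene, most of them (8.46%) in the overlapping antisense gene AC010320.2. The share of PPP2R1B in the scaffold pair, per length, was 34.9%, 34.7% and 31.5% with the mimic, against 25.02%, 23.6% and 23.6% in scramble libraries. This share depends on the transcript length used: the longest PPP2R1B transcript has 5587 bases and the APPRIS principal one 2082, and with the APPRIS length PPP2R1B made up 57.7% ± 2.13 of the pair with the mimic and 46.0% ± 1.09 without (SD, n = 3 each).

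**Figure D3:**
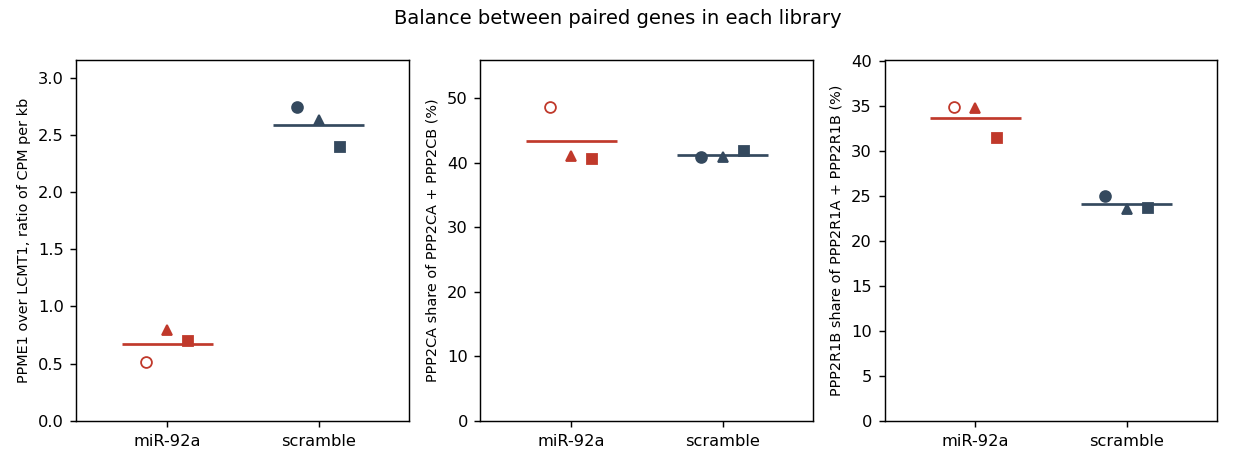
Balance between paired genes in each library, from CPM per kilobase of the longest coding transcript, mimic to the left and scramble to the right; lines are group means and the open circle is miR92a 1. PPME1 over LCMT1 is 0.511 to 0.796 with the mimic and 2.39 to 2.74 in scramble libraries, PPP2R1B makes up 31.5% to 34.9% and 23.6% to 25.02% of the scaffold pair, and PPP2CA makes up 40.6% to 48.6% and 40.8% to 41.8% of the catalytic pair.

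The regulatory subunits among the 10 genes had small differences with overlapping groups. PPP2R2A, a B55 subunit whose binding is favoured by methylation of the catalytic subunit, had 59.9, 44.9 and 42.4 CPM with the mimic, against 49.8, 43.5 and 44.6 CPM in scramble libraries. The high value was that of miR92a 1, on 44 counts, and the log2 fold change of 0.02 ± 0.14 (SE) had the other sign without that library (-0.07). PPP2R5C, a B56 subunit, had 192, 201 and 210 CPM with the mimic, against 206, 215 and 222 CPM in scramble libraries. In each of the 3 numbered pairs it was lower with the mimic, by log2 differences of -0.10, -0.10 and -0.07, but its log2 fold change of -0.08 ± 0.08 (SE) did not pass.

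SET, a nuclear protein that inhibits PP2A and is raised by BCR-ABL1, was the most abundant of the 10 per length. It had 688, 767 and 637 CPM with the mimic, against 941, 892 and 670 CPM in scramble libraries. Scramble 3 lay far below the other scramble libraries and inside the mimic range, so the groups overlapped, and the log2 fold change was -0.26 ± 0.14 (SE), or -0.39 without scramble 3 and -0.16 without scramble 1. By replicate number the log2 differences were -0.45, -0.22 and -0.07; with the block the log2 fold change was -0.24 ± 0.08 (SE) and again did not pass. SET has many processed pseudogenes, and 17.9% of its 31-base words occur in other annotated transcripts, but SETP14 took at most 17 counts in any library, against 506 counts or more for SET, and the 18 other SETP symbols and SETSIP at most 2 each. IGBP1, the alpha4 protein that binds free catalytic subunits, had 61.2, 52.2 and 53.0 CPM with the mimic, against 52.2, 51.6 and 60.6 CPM in scramble libraries, with a log2 fold change of -0.02 ± 0.11 (SE). It shares 18.4% of its words with 6 other genes, the most (7.63%) with the pseudogene IGBP1P1, which had at most 2 counts in a library.

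**Figure D4:**
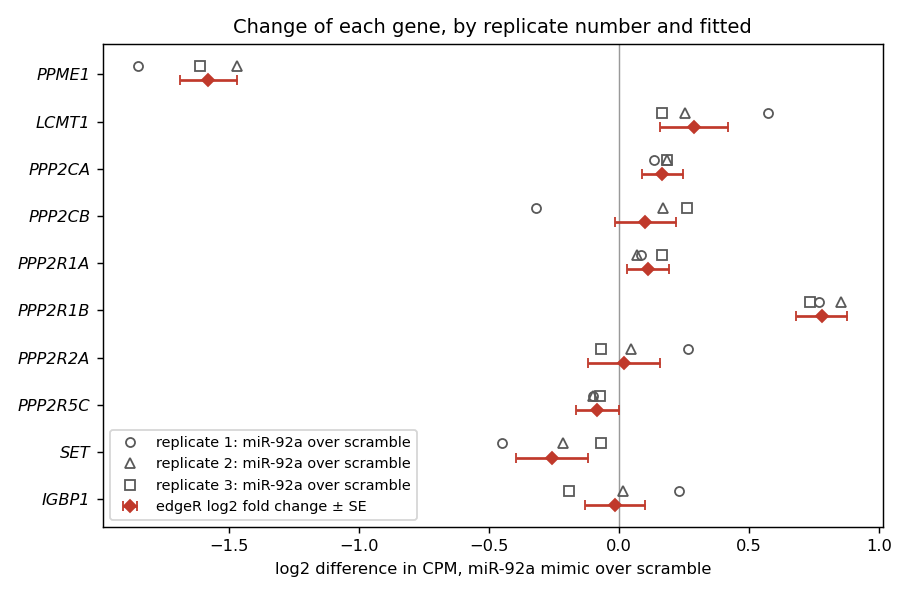
Log2 difference of each gene, mimic over scramble, by replicate number (open symbols, from TMM-scaled CPM) and as fitted by edgeR (filled diamonds, ± SE, n = 3 libraries per group). PPME1 lies at -1.58 and PPP2R1B at 0.78; the other 8 fitted values lie between -0.26 and 0.29.

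Across the 10 genes, groups did not overlap for 1 gene that was lower with the mimic (PPME1) and for 4 that were higher (LCMT1, PPP2CA, PPP2R1A and PPP2R1B); of all tested genes 11.5% were lower and 9.73% higher in this way. In scramble libraries the order of levels per length, as CPM per kilobase, was SET (286 ± 49.6), PPP2R5C (47.8 ± 1.75), PPP2CB (38.9 ± 1.82), PPME1 (38.4 ± 0.518), IGBP1 (29.4 ± 2.70), PPP2R1A (27.8 ± 0.649), PPP2CA (27.2 ± 0.748), LCMT1 (14.9 ± 0.883), PPP2R2A (11.7 ± 0.849) and PPP2R1B (8.82 ± 0.333; SD, n = 3). PPP2CB and PPME1 did not differ beyond their spread, nor did IGBP1, PPP2R1A and PPP2CA. With the mimic PPME1 was the last of the 10, at 12.3 ± 1.67 CPM per kilobase, within the spread of PPP2R2A at 12.4 ± 2.39.

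The transcripts whose pattern over the 6 libraries was most like that of PPME1 were sought among 8673 genes with at least 10 counts in each library, by Pearson correlation of log2 CPM; the split between the groups dominates this measure. SUMF1, which activates sulfatases, came first (r = 0.998), then the translation elongation factor gene EEF1G (0.997), the ubiquitin ligase gene MKRN1 (0.997), UGP2, which makes UDP-glucose (0.996), and the retinol dehydrogenase gene RDH11 (0.996). Their fold changes differed in size: EEF1G averaged 1120 ± 88.3 CPM with the mimic and 2315 ± 36.8 CPM without (log2 -1.05 ± 0.09), and SUMF1 16.9 ± 0.554 and 21.9 ± 0.297 CPM (-0.36 ± 0.12; SD or SE, n = 3 each), which did not pass edgeR's threshold.

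Beyond these 10 genes, 86 genes of the PP2A network in 6 lists were examined, of which 85 were tested; SETBP1, a SET-binding protein gene, had at most 6 counts in a library. The lists were drawn up with earlier results of these data known. Of the 85, 1 fell and none rose by edgeR without the block, against 0.976% and 0.433% of all tested genes. At an unadjusted p under 0.05 in edgeR there were 8 lower and 7 higher of the 85, where 7.51% of all tested genes were lower and 6% higher. DESeq2 called 1 lower and 1 higher (1.7% and 0.97% of all tested genes), and limma-voom 1 lower and 2 higher (1.25% and 0.639%). DESeq2 gave no adjusted p to 10 of the 85 and to 5359 of all 14543 tested genes, which its counts treat as not called. With the replicate block 9 fell and 7 rose, or 3 and 4 without the replicate 1 libraries, against 6.7% and 4.57% of all tested genes (5.08% and 3.29% without replicate 1). The median log2 fold change of the 85 was 0.02.

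The gene that fell in edgeR without the block was PPP6R1, a regulatory subunit of protein phosphatase 6, a close relative of PP2A. It had 91.2, 97.6 and 105 CPM with the mimic, against 184, 185 and 184 CPM in scramble libraries, with no overlap. Its log2 fold change was -0.90 ± 0.09 (SE; edgeR adjusted p = 0.0035). Its 3′ UTR of 748 bases holds a 7mer-m8 to miR-92a-1-5p at bases 161 to 167, shown because PPP6R1 is the one gene of the 6 lists that passed in edgeR without the block.
PPP6R1, 7mer-m8, chr19:55230361-55230367, minus strand: ctggtgccagggagacaggCCCAACCcacc

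Of the 19 related phosphatase genes (PP4, PP6, PP1, PP2B and PP5), PPP6R1 was the 1 that passed in edgeR without the block. At an unadjusted p under 0.05 in that fit 4 were lower and 3 higher, against 7.51% and 6% of all tested genes. With the block 4 fell and 4 rose, against 6.7% and 4.57% of all tested genes. ANKRD28, a scaffold of phosphatase 6, had 54.4, 60.4 and 61.4 CPM with the mimic, against 81.4, 77.3 and 86.1 CPM in scramble libraries (log2 -0.45 ± 0.10 with the block, SE; edgeR adjusted p = 0.0040). ANKRD52, also a scaffold of phosphatase 6, changed by -0.40 ± 0.09 (adjusted p = 0.0063, edgeR with the block) and holds 5 7mer or 8mer matches to miR-92a-1-5p in a 3′ UTR of 5335 bases, whereas ANKRD28 has none to that strand and 3 to miR-92a-3p. The other 4 phosphatase 6 genes of the list, named after their values were seen, passed in neither edgeR fit: the log2 fold change with the block was 0.02 for the catalytic subunit PPP6C, 0.16 for PPP6R2, -0.08 for PPP6R3 and -0.27 for ANKRD44. ANKRD44 had 0 counts in miR92a 1 and at most 40 in any library. Its SE was 0.47 with the block, and its log2 fold change was -0.00091 without the block. PPP4R2, a regulatory subunit of phosphatase 4, fell by 0.38 ± 0.10 in the blocked fit. Those that rose with the block were the calcineurin subunits PPP3R1 (0.34 ± 0.09) and PPP3CB (0.40 ± 0.11), the phosphatase 4 catalytic subunit PPP4C (0.33 ± 0.10) and PPP1CA (0.26 ± 0.08, a protein phosphatase 1 catalytic subunit). Without the replicate 1 libraries PPP6R1, ANKRD28 and PPP4C passed with the block, and ANKRD52, PPP4R2, PPP3R1, PPP3CB and PPP1CA did not.

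Among the 14 other PP2A regulatory subunits none passed with edgeR without the block. At an unadjusted p under 0.05 in edgeR 1 was higher and none lower, against 6% and 7.51% of all tested genes. DESeq2 called 1 higher and none lower (0.97% and 1.7% of all tested genes), as did limma-voom (0.639% and 1.25%). With the block 1 rose and none fell, against 4.57% and 6.7% of all tested genes. In each case the gene was PPP2R5E, a B56 subunit. It had 61.2, 62.8 and 57.0 CPM with the mimic, against 43.2, 40.9 and 44.1 CPM in scramble libraries, a log2 fold change of 0.50 ± 0.11 in the blocked fit (SE; edgeR adjusted p = 0.0036) and 0.49 ± 0.10 without the block (adjusted p = 0.060). Its groups did not overlap, and it passed with the block also without the replicate 1 libraries.

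Of 13 STRIPAK partners, which join PP2A to kinases through striatins, none passed with edgeR without the block, DESeq2 or limma-voom. At an unadjusted p under 0.05 in edgeR 1 was lower and 1 higher, against 7.51% and 6% of all tested genes. With the block 1 fell and none rose, against 6.7% and 4.57% of all tested genes. The 1 that fell was the kinase gene STK26, at 56.2 ± 9.91 CPM with the mimic and 77.7 ± 4.89 CPM without (SD, n = 3 each). Its log2 fold change was -0.46 ± 0.10 (SE, edgeR with the block), and it passed also without the replicate 1 libraries. The list's median log2 fold change was -0.13.

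Of 9 tested inhibitors of PP2A and their kinases none passed with edgeR without the block or with DESeq2, which gave BOD1 no adjusted p. At an unadjusted p under 0.05 in edgeR 2 were higher and none lower, against 6% and 7.51% of all tested genes, and limma-voom called 1 as higher, BOD1. Of all tested genes limma-voom called 0.639% as higher. With the block 2 rose and 1 fell, against 4.57% and 6.7% of all tested genes. BOD1, a kinetochore protein that inhibits PP2A bound to B56, had 13.6, 15.1 and 12.8 CPM with the mimic, against 7.38, 8.46 and 6.57 CPM in scramble libraries (0.89 ± 0.17, edgeR with the block, adjusted p = 0.0014). ANP32A, another inhibitor, rose by 0.30 ± 0.09, and ENSA, which inhibits PP2A bound to B55 once phosphorylated by the kinase MASTL, fell by 0.31 ± 0.10 in the blocked fit. ENSA no longer passed without the replicate 1 libraries, whereas BOD1 and ANP32A did.

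The 22 genes that tie PP2A to BCR-ABL1 signalling held none that passed with edgeR without the block, DESeq2 or limma-voom. At an unadjusted p under 0.05 in edgeR 3 were lower and none higher, against 7.51% and 6% of all tested genes. With the block 3 fell and none rose, against 6.7% and 4.57% of all tested genes. The beta-catenin gene CTNNB1 had 107.5, 147 and 83.4 CPM with the mimic, against 160, 157 and 146 CPM in scramble libraries (-0.48 ± 0.11, edgeR with the block, adjusted p = 0.0076); the groups overlapped through miR92a 2. The pocket protein gene RBL2 changed by -0.35 ± 0.09 and FOXO3, a transcription factor under AKT control, by -0.30 ± 0.09 in that fit. None of these 3 passed with the block without the replicate 1 libraries. HNRNPA1 and PTPN6 stand on either side of PP2A in models of chronic myeloid leukaemia, as a protein that promotes SET and as a phosphatase that PP2A activates; both are named after their values were seen. HNRNPA1 averaged 2384 ± 217 CPM with the mimic and 2493 ± 114 CPM without, and PTPN6 3.19 ± 0.80 and 2.80 ± 0.31 CPM (SD, n = 3 each). PTPN6 rested on 3 counts in miR92a 1 and at most 78 in any library.

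Of the 8 methyl donor and carboxyl methylation enzymes, which include the makers of the methyl donor that LCMT1 uses, none passed with edgeR (with or without the block), DESeq2 or limma-voom, and edgeR's unadjusted p was under 0.05 for none. MAT2A, which makes S-adenosylmethionine, averaged 408 ± 57.9 CPM with the mimic and 428 ± 62.35 CPM without, and AHCY, also of this list, 228 ± 15.8 and 247 ± 30.97 CPM (SD, n = 3 each).

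A 3′ UTR was annotated for 84 network genes, and in 20 of them (23.8%) it contained a 7mer or 8mer to miR-92a-1-5p, against 16.9% of all tested genes.

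**Figure D5:**
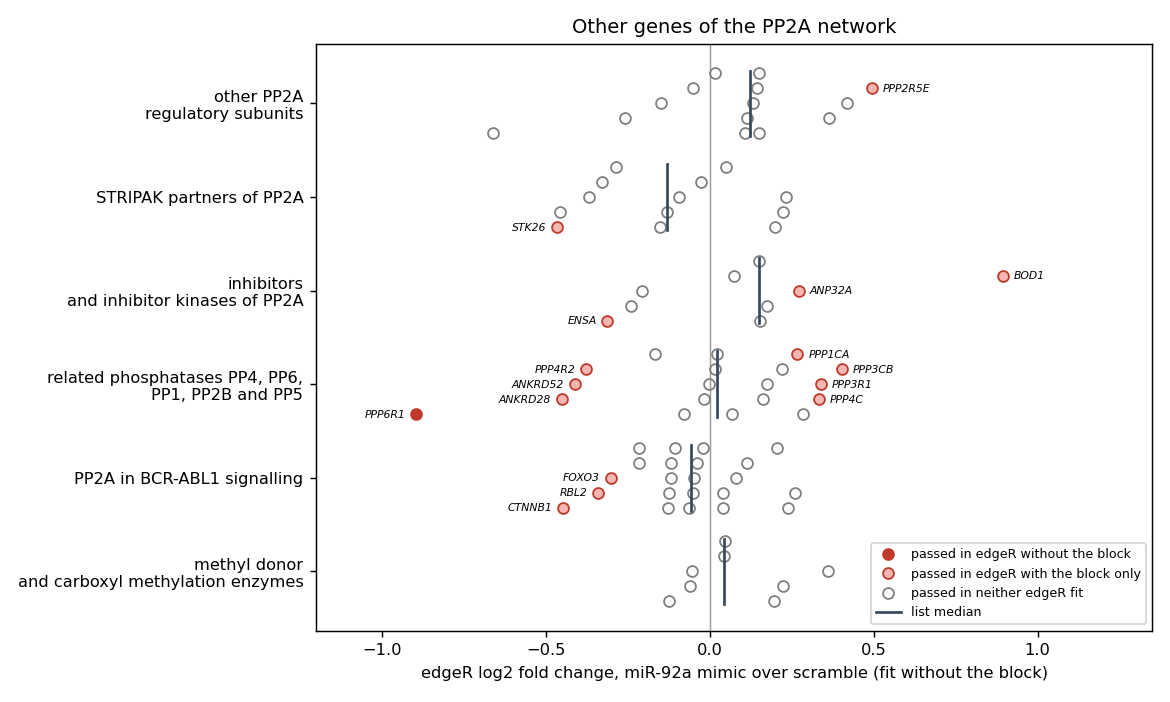
Log2 fold change, mimic over scramble, of the 85 tested network genes by list (edgeR without the block), with a filled circle for PPP6R1, which passed in edgeR without the block at -0.90, light circles for the 15 genes that passed in edgeR's fit with the replicate block and not in the one without, open circles for the rest and a bar at each list's median. List medians lie between -0.13 and 0.15.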

How the data were processed

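Per the labels' protocols, total RNA of 6 K562 cultures was sequenced as read pairs. The submitters' processing notes name kallisto and GRCh38. For the kallisto version, annotation, strand setting and step to gene symbols, nothing is stated (not given in the sources used here). Values that the authors deposited are expected counts (estimated counts) per symbol, whole in the file, with unequal library totals of 704448 to 25982085. They were tested in R 4.3.3 using edgeR 4.0.16 (filterByExpr, TMM, quasi-likelihood F-test on group alone, Benjamini-Hochberg adjustment over 14543 genes, threshold 0.05); the SE is the fold change divided by the square root of F. Alternatives used DESeq2 1.42.0 and limma 3.58.1 (voom). Poisson intervals cover counting error alone. Seed matches, transcript lengths and 31-base words shared with other genes came from GENCODE v29 (Python 3.11.15), and figures from matplotlib 3.10.9. The fit was checked on simulated counts.

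The genes and lists were chosen with earlier results of these data known. Named genes are the 10 members, up to 4 genes per list past the threshold in either fit or else the 2 most abundant, and the 5 most like PPME1, with exceptions said to be named after the fact; the 4 blocked rises among related phosphatases and SETBP1 are also such exceptions. Whether replicate numbers pair the cultures was read from the counts: deviations from group means of same-numbered libraries correlated at 0.370, 0.475 and 0.634 over the 4829 genes averaging 1000 counts or more, each over 0.1, so the replicate block is given beside results it changes. The pair miR92a 2 and scramble 1 had 0.517, so the numbers set replicate 3 apart more clearly than replicates 1 and 2. Over all tested genes the correlations of same-numbered libraries were weaker, at 0.154, 0.16 and 0.42, with 0.0993 for miR92a 2 and scramble 1. Libraries of 1 group differed by more than sampling noise (chi-square per gene 2.02 to 43.6). Coordinates in GENCODE v29 and RefSeq are both GRCh38.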

Additional observations from a re-analysis of the deposited data

How the results depend on the processing

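PPME1 passed the threshold under every alternative run, with a log2 fold change of -1.45 when all libraries were thinned to the depth of the shallowest and -1.53 to -1.68 elsewhere. Since PPME1 was chosen by its fall in these same libraries, passing again in refits of them adds no separate evidence. The count of genes lower and higher with the mimic was 142 and 63, against 247 and 141 with DESeq2, 975 and 664 with the replicate block, 751 and 486 with the block and without replicate 1, 89 and 36 after thinning, and 56 to 148 and 14 to 53 with libraries left out singly; all 205 genes called without the block were also called with it. The count of the 10 genes called higher was 1 (PPP2R1B) but 0 after thinning, and 0 to 1 with libraries left out singly. Network genes called were 1 lower and 0 higher, against 9 and 7 with the replicate block, 3 and 4 with the block and without replicate 1, 1 higher with DESeq2 and 2 higher with limma-voom. Among the 10 genes, signs changed only for 4 that did not pass: PPP2R2A (0.02) was -0.050 with limma-voom, -0.074 to 0.095 with libraries left out singly (below 0 without miR92a 1, scramble 2 or scramble 3) and -0.0058 with the block and without replicate 1. IGBP1 (-0.02) was 0.0018 on library totals and -0.058 to 0.058 with libraries left out singly (above 0 without miR92a 2 or scramble 3). After thinning PPP2CA (0.17) was -0.021 and PPP2R5C (-0.08) 0.020. The cause of these changes was not tested. The replicate block changed no call among the 10 genes. Levels per length depend on the transcript chosen: with the APPRIS principal transcript, added after the counts were seen, PPP2R1B was at 23.7 CPM per kilobase in scramble libraries in place of 8.82. With the shortest coding transcripts, many of them annotated fragments, PPME1 stood at position 9 of the 10 in scramble libraries in place of 4. Depth limits miR92a 1, where PPME1 and LCMT1 rest on 21 counts each.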
